A study of Mus musculus with 2 samples.

Results

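Hspa1a, Hspa1b and Hspa1l are the 3 genes of the mouse HSP70 cluster, and all 3 are among the 11349 protein-coding genes of the deposited table, found there by symbol. They were measured by RNA sequencing in primary macrophages of the mouse abdominal cavity. There were 2 groups of 1 library each. The first came from TREM-2-/- macrophages. Their title marks a full loss of the lipid-sensing receptor Trem2, while the genotype label reads knockdown. The second came from WT macrophages, whose column is named C57. Both groups were kept with TGF-β1, a growth factor of tissue repair and scarring, for 24 h, so no library shows these cells without it. The sources used here do not give the age or sex of the mice, the number of animals pooled, or the way the knockout was made. The series set out to find genes that differ between knockout and WT macrophages, and Hspa1b and AKT stand in its title. Since each group is 1 library, there is no replicate check and no test, so every value describes these 2 libraries, and a difference is picked out by its size alone.

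HSP70 proteins are ATP-driven chaperones that bind unfolded stretches of other proteins and keep them from clumping. Hspa8 encodes the constitutive cytosolic form, which cells make at all times, while Hspa1a and Hspa1b encode the stress-inducible form, and Hspa1l a close relative best known from testis. In stressed cells the factor HSF1 binds heat-shock elements, repeats of the letters GAA in alternating direction, and starts transcription of the inducible genes. HSP70 can also leave cells, within exosomes among other routes, and then bind receptors on other cells.

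The 3 genes lie within 22850 bases of chromosome 17, in the MHC region. In mm10 coordinates, Hspa1b (ENSMUSG00000090877.3) occupies chr17:34956436-34959238 on the - strand and Hspa1a (ENSMUSG00000091971.3) chr17:34969190-34972156 on the - strand. Hspa1l (ENSMUSG00000007033.4) occupies chr17:34972703-34979285 on the + strand, head to head with Hspa1a, with 546 bases between their starts. The 250 bases before each start are shown because promoter elements of the genes with the widest gap between the libraries lie there. They are from RefSeq, build GRCm38.p6, 5′ to 3′, at chr17:34972157-34972406 (- strand) for Hspa1a, chr17:34959239-34959488 (- strand) for Hspa1b and chr17:34972453-34972702 (+ strand) for Hspa1l. Capitals mark matches to the motifs named in the next paragraph.
Hspa1a: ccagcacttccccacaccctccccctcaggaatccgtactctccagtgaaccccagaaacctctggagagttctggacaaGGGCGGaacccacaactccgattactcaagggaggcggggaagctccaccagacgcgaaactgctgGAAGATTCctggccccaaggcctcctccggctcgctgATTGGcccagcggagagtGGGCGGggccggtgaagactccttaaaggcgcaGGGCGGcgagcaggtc
Hspa1b: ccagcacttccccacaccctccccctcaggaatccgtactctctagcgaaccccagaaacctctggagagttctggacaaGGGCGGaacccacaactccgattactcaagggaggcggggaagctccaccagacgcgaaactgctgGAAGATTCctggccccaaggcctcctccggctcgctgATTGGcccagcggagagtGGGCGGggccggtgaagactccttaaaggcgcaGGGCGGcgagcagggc
Hspa1l: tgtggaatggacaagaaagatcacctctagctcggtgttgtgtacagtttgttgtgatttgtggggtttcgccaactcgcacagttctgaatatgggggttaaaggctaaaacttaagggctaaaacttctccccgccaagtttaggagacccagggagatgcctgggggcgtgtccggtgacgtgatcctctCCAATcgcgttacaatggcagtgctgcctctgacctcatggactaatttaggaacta

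The Hspa1a and Hspa1b windows have the same letter at 247 of 250 positions. Counted from 1 at the 5′ end, with the letter of Hspa1a first, they differ by C44T, T47C and T249G. Both hold 1 copy of a 2-unit heat-shock element (GAANNTTC or TTCNNGAA, searched on both strands), 104 to 97 bases before the start, and so do 12.8% of all 32851 promoter windows of the same length. Neither holds the 3-unit element (GAANNTTC followed by NNGAA, or TTCNNGAA followed by NNTTC), which contains the 2-unit one and occurs in 0.466% of windows. Each has 1 CCAAT box (CCAAT, in 33.8% of windows) and 3 GC boxes (GGGCGG, in 32.7%), and none has TATAAA, which 12.4% hold. The Hspa1l window also has 1 CCAAT box and has 0 matches to the other motifs. A match is a run of letters and not a measured binding site.

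The coding sequences of Hspa1a (1926 bases) and Hspa1b (1929 bases) are 99.4% identical, with 8 mismatches and 1 insertion of 3 bases, while their 3′ untranslated regions are 47.3% identical. Near-identity matters for the values, because a read from a shared stretch cannot be given to a copy by its letters. Of all 150-base windows of the Hspa1a transcript, 60.3% occur in no other gene's transcript, and of those of Hspa1b 59.5%. The last 90 coding bases, up to and including the stop codon, show how few letters separate the copies there (GENCODE M21, GRCm38, chr17:34970000-34970089 for Hspa1a and chr17:34957079-34957168 for Hspa1b, both - strand). Capitals mark letters that differ between the copies or are present in Hspa1b alone.
Hspa1a: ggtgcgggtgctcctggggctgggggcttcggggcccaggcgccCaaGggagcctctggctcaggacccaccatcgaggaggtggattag
Hspa1b: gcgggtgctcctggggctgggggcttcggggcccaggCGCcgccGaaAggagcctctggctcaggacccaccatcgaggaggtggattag

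Before the values, the labels were checked. Trem2 was at 13.7 FPKM in the knockout library and 135 FPKM in the WT library, where FPKM is a fragment count scaled for gene length and library size. Which part of Trem2 the knockout removes is not stated in the labels. Depth, estimated from the spacing of low values, was 12.4 M fragments in the knockout library and 13.5 M in WT. Of the 12 macrophage markers 10 were listed, and Cd163 and Timd4 were not. As deposited 3 were 2-fold or more lower in the knockout (Itgam, Fcgr1 and Gata6) and 0 higher. Of all genes 13.7% were lower and 3.48% higher. By sign alone, 5 of the 10 markers stood higher in the knockout. The summed level of the 10 was 13194.5 FPKM in the knockout and 10588.5 FPKM in WT. The median log2 fold change of the 9962 genes averaging at least 1 FPKM was -0.31 on the log2(FPKM + 1) scale, so values are also given relative to that median. Relative to it, 2 macrophage markers were lower and 0 higher, where 6.57% of all genes were lower and 7.66% higher.

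All 3 genes stood higher in the knockout library. Hspa1a was at 486 FPKM in the knockout library and 2.42 FPKM in the WT library, a plain ratio of 201. Hspa1b was at 483 FPKM in the knockout and 2.30 FPKM in WT, a ratio of 210.5. The pair was thus among the abundant messages of the knockout cells and in the lower part of the table in WT cells. Hspa1l was at 12.8 FPKM in the knockout and 0.873 FPKM in WT, a ratio of 14.6. By level, Hspa1a and Hspa1b ranked 76th and 77th of 11349 genes in the knockout, against 8362nd and 8494th in WT, and Hspa1l 2854th in the knockout against 10327th in WT.

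Summed over both copies, which depends little on how reads were shared between them, the inducible pair was at 969 FPKM in the knockout library and 4.71 FPKM in WT. That is a ratio of 206, with an exact (Clopper-Pearson) 95% interval of 178 to 239.5 that covers counting error only. Behind it stand an estimated 34716 fragments in the knockout and 183 in WT, or 0.280% of all fragments in the knockout and 0.00136% in WT. For the single genes the same interval ran from 164 to 247 for Hspa1a, from 170.0 to 262 for Hspa1b and from 10.1 to 22.2 for Hspa1l. The WT values rest on few fragments, 96.6 for Hspa1a, 86.7 for Hspa1b and 29.1 for Hspa1l, so the counting error comes almost wholly from that library. Within each library the copies were near equal, with 1.01 FPKM of Hspa1a for each FPKM of Hspa1b in the knockout and 1.05 in WT.

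**Figure D1:**
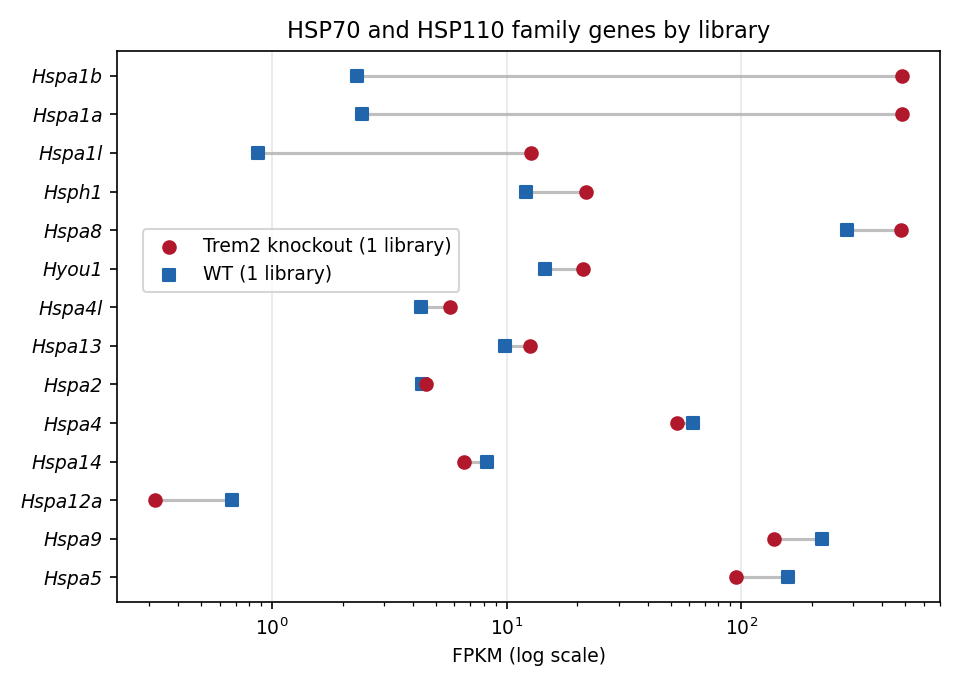
FPKM on a log axis for the 3 inducible HSP70 genes and the 11 other listed HSP70 and HSP110 family genes, with a red circle for the knockout library and a blue square for the WT library, ordered by log2 fold change. Hspa1a and Hspa1b sit at 486 and 483 FPKM in the knockout, against 2.42 and 2.30 FPKM in WT, and no other family member shows a gap of that size.

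On the log2(FPKM + 1) scale, which understates the change of low genes, the log2 fold change was 7.20 for Hspa1b, 7.16 for Hspa1a and 2.88 for Hspa1l. These rank 1st, 2nd and 22nd of 9962 genes, and 3 of 3 members passed 2-fold where 3.48% of all genes did so in that direction. Hspa1a and Hspa1b were over 1 FPKM in both libraries, while Hspa1l met this minimum through its knockout value alone, so nothing is read from its pass. Past 4-fold stood 0.512% of all genes and past 10-fold 0.141%. Most genes with a like level in WT were low in the knockout too. Among genes averaging at least 1 FPKM, 3208 had a WT value between 1.18 and 4.71 FPKM. That range is within 2-fold of the mean of Hspa1a and Hspa1b in WT. Of these 3208 genes, 106 were higher by 2-fold or more in the knockout, 18 at least 4-fold and 4 at least 10-fold. Those 4 were Hspa1a, Hspa1b, the MHC class I gene H2-Q6 and Ctgf, a matrix-associated growth factor named after its value was seen (55.4 FPKM in the knockout, 2.44 in WT). The median knockout level of these 3208 genes was 1.92 FPKM. Genes near the lower end of the WT range met the minimum mean only with enough knockout signal. The counts and the median thus partly reflect that choice.

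**Figure D2:**
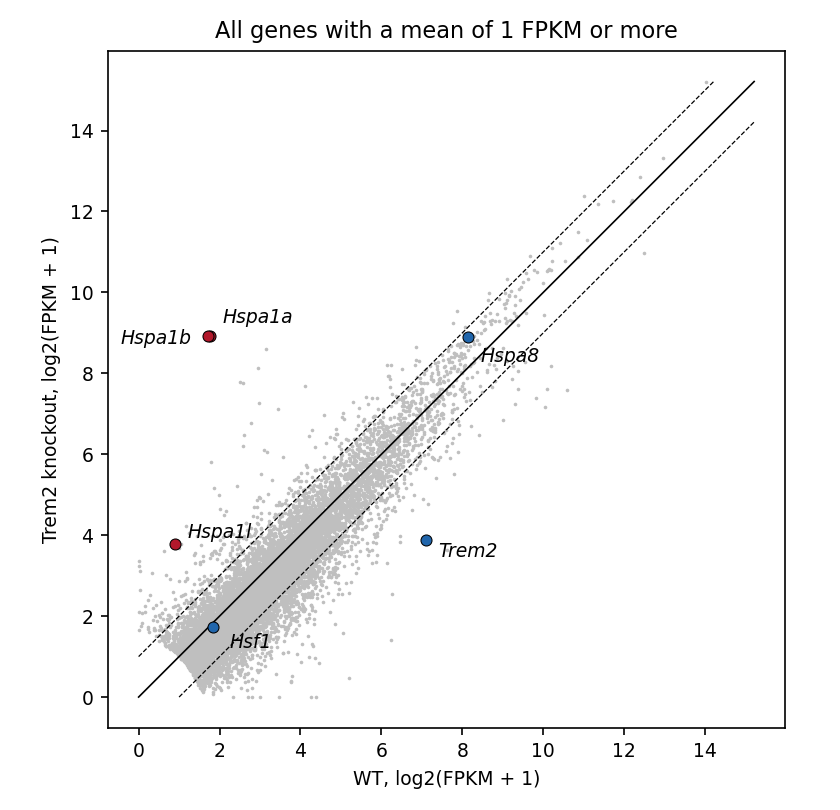
Each grey point is 1 gene averaging at least 1 FPKM, with its WT level on the horizontal axis and its knockout level on the vertical axis, both as log2(FPKM + 1). The solid line marks equal levels and the dashed lines 2-fold. Hspa1a and Hspa1b lie above the cloud at log2 fold changes of 7.16 and 7.20, while Hspa8 (0.76) and Hsf1 (-0.11) lie between the dashed lines.

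The genes most like the pair, by the log2 fold change over the 2 libraries among those averaging 10 FPKM or more, included Tagln, H2-Q6, Acta2 and H2-Q7. Tagln, which encodes a smooth muscle protein that binds actin, was at 388 FPKM in the knockout and 7.91 FPKM in WT (log2 fold change 5.45). H2-Q6 was at 220.4 FPKM in the knockout and 4.65 FPKM in WT (5.29), and its relative H2-Q7 at 216 FPKM in the knockout and 4.96 FPKM in WT (5.19). These class I genes are close paralogs, so the split of reads between them is uncertain. Acta2, smooth muscle actin, was at 279 FPKM in the knockout and 6.67 FPKM in WT (5.19). A gap of 1.71 on the log2 scale thus separated Hspa1a from the next gene of this group. Fibroblast markers also differed between the libraries. All 8 on that list were listed. As deposited 3 of them were 2-fold or more higher in the knockout and 1 lower, where 3.48% of all genes were higher and 13.7% lower. Relative to the all-gene median 4 were higher and 1 lower, where 7.66% of all genes were higher and 6.57% lower. The summed level of the 8 was 408 FPKM in the knockout and 237 FPKM in WT. Among the 8 the collagen gene Col1a1 was at 171 FPKM in the knockout and 48.1 FPKM in WT. The surface protein gene Thy1 was at 3.80 FPKM in the knockout and 0.336 FPKM in WT, and met the minimum mean through its knockout value alone. The growth-factor receptor gene Pdgfra was the lower one (log2 fold change -2.11). The part of the fibroblast markers in the HSP70 values was not tested, and in bulk RNA fewer cells of a type and less RNA per cell cannot be told apart. Of the other cell types, the summed level was 4.79 FPKM in the knockout and 17.1 FPKM in WT for 7 listed mesothelial markers, and 18.3 FPKM in the knockout and 33.4 FPKM in WT for 3 of 6 listed neutrophil markers. It was 2.67 FPKM in the knockout and 10.9 FPKM in WT for 3 of 6 mast cell markers, 1.41 FPKM in the knockout and 5.92 FPKM in WT for 2 of 5 endothelial markers, 10.6 FPKM in the knockout and 9.59 FPKM in WT for 3 of 6 B cell markers, and 2.45 FPKM in the knockout and 2.33 FPKM in WT for 2 of 7 T and NK cell markers. The remaining markers of these lists were not listed.

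Hspa1l shares with Hspa1a a coding stretch of 233 identical bases, the longest run the genes have in common, and 188 of these bases in a row also occur in Hspa1b. It is shown because reads from it fit more than 1 gene. It covers chr17:34977599-34977831 (+ strand) of Hspa1l, coding bases 613 to 845, and chr17:34971087-34971319 (- strand) of Hspa1a, coding bases 607 to 839. The capital in the third line marks the letter in which Hspa1b, at chr17:34958169-34958401 (- strand), differs from the other two.
Hspa1l: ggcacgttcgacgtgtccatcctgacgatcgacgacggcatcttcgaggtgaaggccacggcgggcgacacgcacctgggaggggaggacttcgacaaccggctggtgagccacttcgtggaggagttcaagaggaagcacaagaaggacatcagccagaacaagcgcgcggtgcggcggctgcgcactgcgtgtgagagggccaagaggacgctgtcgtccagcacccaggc
Hspa1a: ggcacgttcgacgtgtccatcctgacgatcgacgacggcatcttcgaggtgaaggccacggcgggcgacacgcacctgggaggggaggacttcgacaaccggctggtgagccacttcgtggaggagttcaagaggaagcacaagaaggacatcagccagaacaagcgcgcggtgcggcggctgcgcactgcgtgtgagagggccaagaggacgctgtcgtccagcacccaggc
Hspa1b: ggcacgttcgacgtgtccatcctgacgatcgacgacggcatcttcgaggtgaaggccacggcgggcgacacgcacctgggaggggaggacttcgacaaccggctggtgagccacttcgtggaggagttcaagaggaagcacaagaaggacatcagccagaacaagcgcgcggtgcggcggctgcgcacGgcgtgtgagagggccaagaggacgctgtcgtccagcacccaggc

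Over its whole coding sequence Hspa1l is 82.9% identical to Hspa1a and 82.5% to Hspa1b, and 96.4% of its 150-base windows occur in no other gene's transcript. The reads that could be shared were estimated, since Hspa1a and Hspa1b were far more abundant than Hspa1l in the knockout. At their mean coverage in the knockout library, 150-base reads lying wholly inside the stretches shared with Hspa1l would amount to 222238 bases, against 117592 bases counted at Hspa1l. In WT the same reads would amount to 1183 bases, against 8726.5 bases counted at Hspa1l. The potential overlap was thus 1.89 times the Hspa1l signal in the knockout and 0.136 times in WT. The sources used here do not say how reads that fit several genes were assigned. Mates that reach beyond the stretch can settle the assignment, and the part of such reads in the Hspa1l value was not tested.

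The constitutive gene Hspa8 was at 480 FPKM in the knockout library and 282 FPKM in WT, a ratio of 1.70 (interval 1.67 to 1.74). Its log2 fold change was 0.76 as deposited and 1.07 relative to the all-gene median. It shares no 50-base window with the inducible genes. Per length, the inducible pair stood at 2.02 times Hspa8 in the knockout and 0.0167 times Hspa8 in WT, so that Hspa1a and Hspa1b made up 66.9% of the summed FPKM of the 3 genes in the knockout and 1.64% in WT. This share does not depend on the scaling between libraries. It does depend on length, since Hspa8 is scaled by 4301 bases of merged exons while its coding transcript has 2394. On the coding transcript's length the share is 52.9% in the knockout and 0.922% in WT, a setting added after the data were seen.

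**Figure D3:**
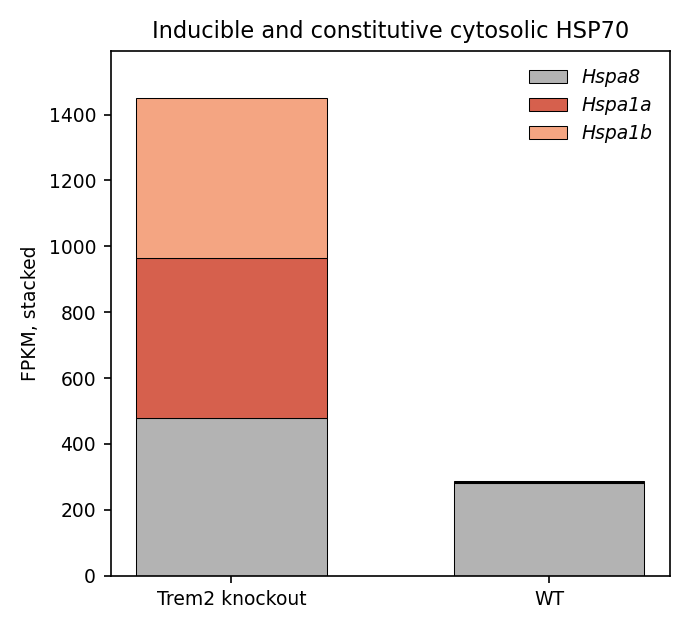
Stacked FPKM of Hspa8 (grey), Hspa1a (red) and Hspa1b (light red) in the knockout library, left, and the WT library, right. Hspa8 reaches 480 FPKM in the knockout and 282 FPKM in WT, and the inducible genes add 969 FPKM in the knockout and 4.71 FPKM in WT, where they are barely visible.

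None of the other family members listed came near the difference of the inducible pair. Of the 12 other HSP70 and HSP110 genes 11 were listed and 10 averaged at least 1 FPKM, and 0 of these passed 2-fold in either direction, against 3.48% of all genes higher and 13.7% lower, a count close to those shares. Set against the all-gene median 2 were higher, Hspa8 and Hsph1, where 7.66% of all genes were, and 0 lower, where 6.57% were. Hsph1, an HSP110 that swaps the nucleotide on HSP70, was at 21.8 FPKM in the knockout and 12.1 FPKM in WT (ratio 1.81, interval 1.68 to 1.94). The ER chaperone Hspa5 (BiP) went the other way, at 95.3 FPKM in the knockout and 159 FPKM in WT, and so did Hspa9 of mitochondria, at 139 FPKM in the knockout and 222 FPKM in WT. Hyou1, an ER relative of HSP110, was at 21.2 FPKM in the knockout and 14.6 FPKM in WT. The exchange factors Hspa4 (53.1 FPKM in the knockout, 62.4 in WT) and Hspa4l (5.75 FPKM in the knockout and 4.34 FPKM in WT), the microsomal Hspa13 (12.6 FPKM in the knockout and 9.84 FPKM in WT), the ribosome-linked Hspa14 (6.61 FPKM in the knockout and 8.29 FPKM in WT), Hspa2 (4.52 FPKM in the knockout and 4.34 FPKM in WT), a testis form, and Hspa12a (0.317 FPKM in the knockout and 0.676 FPKM in WT) completed the list. Hspa12a, under the minimum mean, had a plain ratio of WT over knockout of 2.13.

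The heat-shock factors stayed within 2-fold. Hsf1, the factor that drives the inducible genes after heat, was at 2.30 FPKM in the knockout library and 2.57 FPKM in WT, with a log2 fold change of -0.11 as deposited and 0.20 relative to the all-gene median, so that its direction depends on the scaling. Hsf2 was at 3.48 FPKM in the knockout and 3.13 FPKM in WT, and Hsf4 at 3.89 FPKM in the knockout and 2.45 FPKM in WT. Hsbp1, which binds HSF1 trimers and restrains them, was at 104 FPKM in the knockout and 90.9 FPKM in WT, and Ier5, an immediate early gene that promotes HSF1 activity, at 28.4 FPKM in the knockout and 33.5 FPKM in WT. None of these 5 listed genes passed 2-fold on either count, which is close to the all-gene shares. Those shares were 3.48% higher and 13.7% lower as deposited, and 7.66% and 6.57% relative to the median. The other 3 of the 8 on the list were not listed. The level of a factor's message does not show its activity.

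Known targets of HSF1 differed far less than the inducible pair. Of 25 on the list 24 averaged at least 1 FPKM, and 3 were 2-fold higher or more and 0 lower, where 3.48% of all genes were higher and 13.7% lower. Relative to the all-gene median 8 were higher and 0 lower, where 7.66% of all genes were higher and 6.57% lower. Their median log2 fold change was 0.47, against -0.31 for all genes, and the highest was 1.72. That was Hspb1, a small heat-shock protein, at 85.5 FPKM in the knockout and 25.3 FPKM in WT (ratio 3.38, interval 2.99 to 3.82). Dnajb4, a cochaperone that delivers clients to HSP70, was at 9.77 FPKM in the knockout and 2.41 FPKM in WT (ratio 4.06, interval 3.56 to 4.65). Serpinh1, the collagen chaperone HSP47, stood at 170.0 FPKM in the knockout and 90.8 FPKM in WT. Dnajb1, the classical J-domain partner of inducible HSP70, was at 15.5 FPKM in the knockout and 10.2 FPKM in WT, and Bag3, a stress-inducible exchange factor, at 18.4 FPKM in the knockout and 22.5 FPKM in WT. Hsp90aa1, the inducible HSP90, was at 146 FPKM in the knockout and 92.4 FPKM in WT. Dnajb1, Bag3 and Hsp90aa1, like Egr2 and Hspe1 further on, were named after their values were seen.

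**Figure D4:**
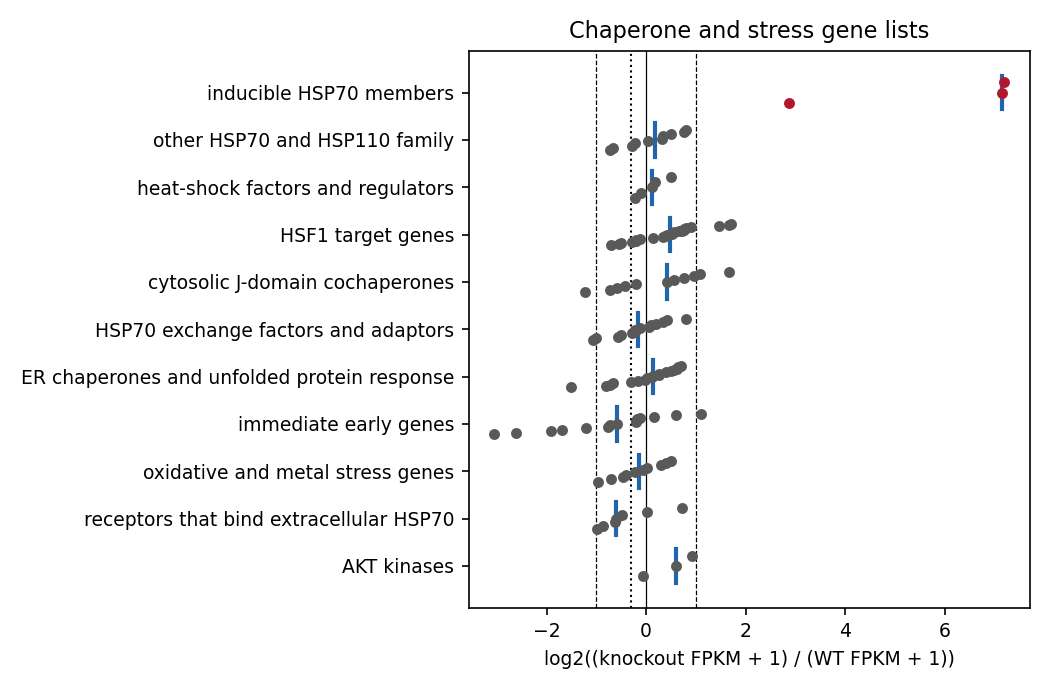
Log2 fold change of knockout over WT, on the FPKM + 1 scale, for each gene of 11 lists averaging at least 1 FPKM. Blue bars are list medians, the dotted line is the median of all genes at -0.31, and dashed lines mark 2-fold. Hspa1a and Hspa1b stand at 7.16 and 7.20, while the HSF1 target list ends at 1.72.

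The machinery that works with HSP70 was mixed. J-domain cochaperones, which stimulate the HSP70 ATPase, had 2 of 11 members at least 2-fold higher in the knockout and 1 lower, with a median of 0.43, or 4 higher and 0 lower relative to the all-gene median. The same all-gene shares, 3.48% higher and 13.7% lower as deposited and 7.66% and 6.57% relative to the median, apply to this list and the following ones. Besides Dnajb4 these were Dnajb6, which suppresses aggregation, at 59.2 FPKM in the knockout and 27.5 FPKM in WT, and, lower, Dnajc7, which also binds HSP90, at 11.6 FPKM in the knockout and 28.4 FPKM in WT. Dnajb2 was at 3.96 FPKM in the knockout and 1.55 FPKM in WT. Exchange factors and adaptors had 0 of 14 higher and 2 lower, with a median of -0.17, or 1 higher and 0 lower relative to the all-gene median, counts close to those shares. The lower ones were Hspbp1, which releases nucleotide from HSP70, at 7.51 FPKM in the knockout and 16.9 FPKM in WT, and Bag5 at 7.48 FPKM in the knockout and 16.0 FPKM in WT. Stub1 (CHIP), a ubiquitin ligase that marks HSP70 clients, was at 37.9 FPKM in the knockout and 56.9 FPKM in WT.

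Stress programmes outside the cytosolic heat-shock response did not share the size of the HSP70 difference. ER chaperones and unfolded protein response genes had 0 of 18 members at least 2-fold higher and 1 lower, with a median of 0.13, or 1 higher and 1 lower relative to the all-gene median, beside all-gene shares of 3.48% and 13.7% as deposited and 7.66% and 6.57% relative. The lower gene was Atf4, a transcription factor of the integrated stress response, at 103 FPKM in the knockout and 294 FPKM in WT. Herpud1, which aids ER protein breakdown, was at 12.0 FPKM in the knockout and 21.6 FPKM in WT, and the ER HSP90 gene Hsp90b1 at 325 FPKM in the knockout and 200.3 FPKM in WT. Immediate early genes, which respond within minutes to stimulation or cell handling, had 1 of 15 higher, Egr2 (6.17 FPKM in the knockout, 2.34 in WT), and 5 lower, with a median of -0.59, or 1 higher and 4 lower relative to the all-gene median. Of all genes 13.7% were lower as deposited and 6.57% relative to the median. Fos was at 1.38 FPKM in the knockout and 18.7 FPKM in WT, and Ier2 at 3.31 FPKM in the knockout and 25.4 FPKM in WT. Egr1 was at 0.522 FPKM in the knockout and 4.70 FPKM in WT, and Klf2 at 1.25 FPKM in the knockout and 6.24 FPKM in WT. Egr1 met the minimum mean through its WT value alone, so nothing is read from its call. Differences in the handling of the cells before lysis are not recorded in the labels, and the part of handling in the HSP70 values was not tested.

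Genes with a heat-shock element before their start were also read as a group defined by sequence alone. Of the 7872 genes with a promoter window and averaging at least 1 FPKM, 38 hold the 3-unit element. In the knockout 2 of these were at least 2-fold higher and 0 lower, against 3.47% higher and 13.6% lower among all genes with a window, and their median was -0.20, against -0.31. Relative to the all-gene median 5 were higher and 0 lower, where 7.51% of genes with a window were higher and 6.45% lower. The 2 were Dnajb6 and Slc29a1, a nucleoside transporter (31.9 FPKM in the knockout, 14.4 in WT). The next by size were lower in the knockout but within 2-fold on this scale, namely Tra2b (11.4 FPKM in the knockout and 22.3 FPKM in WT), Plscr4 (2.13 FPKM in the knockout and 4.81 FPKM in WT), Uchl1 (0.471 FPKM in the knockout and 1.69 FPKM in WT) and Map2k4 (6.07 FPKM in the knockout and 11.5 FPKM in WT). The 2-unit element, which Hspa1a and Hspa1b hold, is present in 952 genes, of which 47 (4.94%) were higher and 129 (13.6%) lower, with a median of -0.30. Relative to the all-gene median the balance turned, to 88 higher and 72 lower. It turned likewise for all 7872 genes with a window, to 591 higher and 508 lower. Of the 25 HSF1 targets 20 have a window, 8 with a 2-unit element and 2 of these, Hspd1 and Hspe1, also with the 3-unit one.

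The stretches around the elements of 4 such targets are shown for comparison with the Hspa1a and Hspa1b windows, with the 2-unit elements in capitals and up to 10 bases either side (RefSeq, GRCm38.p6). Hspe1 encodes the mitochondrial cochaperonin, and its element is in chr1:55088049-55088086 (+ strand). Those of Hspb1 are in chr5:135887792-135887839 (+ strand), that of Dnajb4 in chr3:152193846-152193869 (- strand) and that of Hsph1 in chr5:149636352-149636379 (- strand).
Hspe1: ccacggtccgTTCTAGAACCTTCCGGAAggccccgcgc
Hspb1: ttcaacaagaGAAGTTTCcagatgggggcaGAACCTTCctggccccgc
Dnajb4: tcgttcgctgTTCTAGAAagtaca
Hsph1: ggtagaatctTTCTCGAAggctcgagaa

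Hspe1 was at 190.2 FPKM in the knockout and 115 FPKM in WT, and Hspa1a at 486 FPKM in the knockout and 2.42 FPKM in WT. The search counts exact matches only, 3 overlapping ones in Hspe1 and 1 in Hspa1a, and misses elements with a changed letter. The part of the elements in these levels was not tested.

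Around the cluster, large differences did not extend to all neighbours. Besides the 3 members, 10 genes within 100 kb were listed. Of these 2 were higher in the knockout, Gm20481 and Cfb, and 1 was lower, Zbtb12, with a median log2 fold change of -0.22. Relative to the all-gene median 3 were higher and 1 lower. Of all genes 3.48% were higher and 13.7% lower as deposited, and 7.66% and 6.57% relative to the median. Gm20481 met the minimum mean through its knockout value alone and Zbtb12 through its WT value alone, so nothing is read from either call. The closest neighbour is Gm20481, whose 2 exons lie inside the Hspa1a exon on the opposite strand. It was at 2.14 FPKM in the knockout, an estimated 15.0 fragments or 0.0837% of those of Hspa1a, and listed at 0 in WT. The libraries were made with dUTP, which marks strand, but no source used here says whether the counting used it, so signal from the Hspa1a strand cannot be told apart from an antisense transcript. Lsm2, an RNA-processing factor and the next gene beyond Hspa1l, was at 2.46 FPKM in the knockout and 2.68 FPKM in WT, and the sialidase Neu1 on the other side at 46.8 FPKM in the knockout and 59.6 FPKM in WT. Cfb, complement factor B, was at 65.3 FPKM in the knockout and 8.09 FPKM in WT (ratio 8.07, interval 7.16 to 9.12), while its neighbour C2 was at 2.22 FPKM in the knockout and 2.14 FPKM in WT. Zbtb12, a zinc finger gene, was at 0.865 FPKM in the knockout and 3.99 FPKM in WT. The histone methyltransferase Ehmt2 was at 15.9 FPKM in the knockout and 20.5 FPKM in WT, the tRNA synthetase Vars at 3.75 FPKM in the knockout and 6.79 FPKM in WT, the chloride channel protein Clic1 at 130.4 FPKM in the knockout and 213 FPKM in WT, and Ddah2 at 13.4 FPKM in the knockout and 7.57 FPKM in WT.

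Within 1 Mb, a distance chosen after the data were seen, 73 genes other than the members averaged at least 1 FPKM, and 17 were 2-fold or more higher in the knockout and 7 lower. Of these 73, the 14 genes with symbols starting H2- had 12 higher and 0 lower, with a median log2 fold change of 1.67. They were picked by symbol, and 1 of the 12, H2-Ke6 (28.5 FPKM in the knockout and 11.6 FPKM in WT), is an enzyme gene and not an MHC gene. Another, H2-Q10 (2.36 FPKM in the knockout and 0.0466 FPKM in WT), met the minimum mean through its knockout value alone. The other 59 had 5 higher (8.47%) and 7 lower, with a median of -0.34. These counts include Gm20481, which met the minimum mean through its knockout value alone. They also include Zbtb12 and Ppp1r10 (0.990 FPKM in the knockout and 7.06 FPKM in WT), which met it through their WT values alone. Nothing is read from these calls. On the rest of chromosome 17, 14 of 454 genes were higher (3.08%) and 62 lower, with a median of -0.33. Relative to the all-gene median, 13 of the 14 H2- genes were higher and 0 lower, 8 of the other 59 were higher and 4 lower, and 36 of the 454 were higher and 37 lower. The all-gene shares were 3.48% higher and 13.7% lower as deposited, and 7.66% and 6.57% relative to the median.

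**Figure D5:**
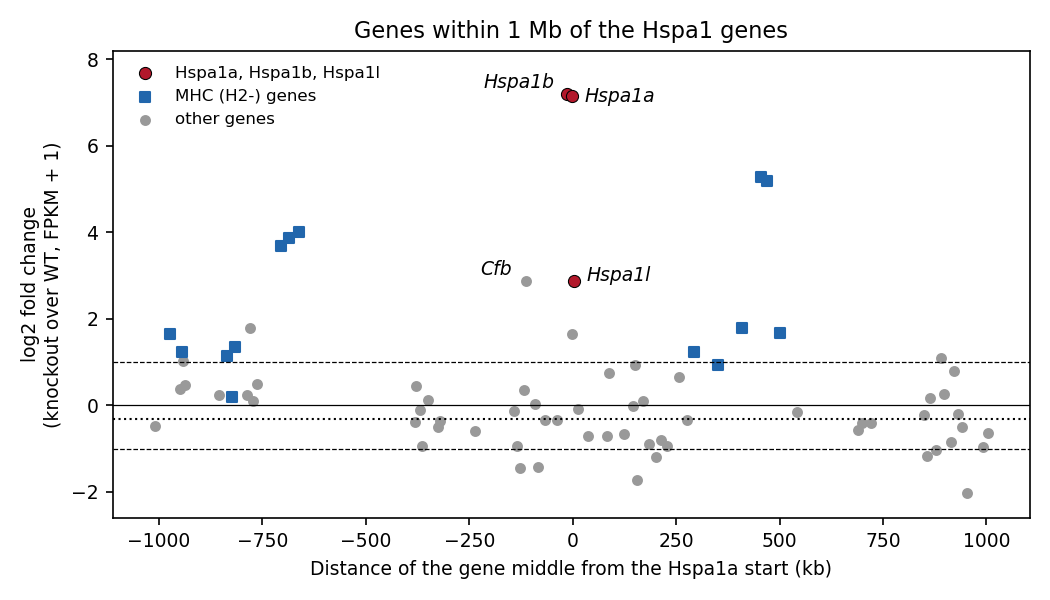
Log2 fold change of knockout over WT (FPKM + 1) against distance from the Hspa1a start, for genes within 1 Mb averaging at least 1 FPKM. Red points are Hspa1a, Hspa1b and Hspa1l, blue squares genes with symbols starting H2- (all MHC genes but H2-Ke6) and grey points other genes, the dotted line is the median of all genes and dashed lines mark 2-fold. The pair stands at 7.16 and 7.20, 12 of 14 H2- genes lie above the upper dashed line, and the other genes centre on -0.34.

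The series' title links Hspa1b to AKT, the kinase that relays growth-factor signals. Akt1 was at 60.5 FPKM in the knockout library and 63.4 FPKM in WT, with a ratio of 0.955 (interval 0.909 to 1.003) and a direction that turns from -0.07 as deposited to 0.24 relative to the all-gene median. Akt2 was at 13.4 FPKM in the knockout and 6.65 FPKM in WT (interval of the ratio 1.83 to 2.22). On the log2(FPKM + 1) scale neither passed 2-fold as deposited, and Akt2 did relative to the all-gene median, at 1.22. Of all genes 3.48% were higher and 13.7% lower as deposited, and 7.66% and 6.57% relative to the median. Message levels do not show kinase activity.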

How the data were processed

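The authors deposited a table of FPKM values by gene, with a column for each library, per the file headers. The submitters' processing notes name the build mm10. No source used here names the aligner, quantifier, annotation or read length. Per the labels' protocols, cDNA was made with random primers, dUTP went into the second strand, and an Illumina machine read the libraries. The higher of a gene's 2 values was never under 0.501 FPKM.

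Fold changes were computed as log2((knockout FPKM + 1)/(WT FPKM + 1)) in genes averaging at least 1 FPKM, and a gene is called higher or lower at 2-fold or more. No test is possible with 1 library per group. Of the symbols, 10 had 2 gene IDs, Itgam among them. Counts over all genes kept both, and lists used the ID with the higher mean.

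For depth, FPKM times merged exon length (GENCODE M21, 9914 of 11349 IDs matched with version) was examined in genes with 1 transcript. Of these products, 74.7% of 320 in the knockout and 69.0% of 252 in WT lay within 0.1 steps of a whole multiple of a common step, where chance gives 20%. Low values piled up within 10 steps below 300 and 600, in 8 of 16 knockout and 2 of 4 WT values, so 300 steps were taken as 1 fragment and 150 bases as a read. These are estimates, used for intervals and overlaps only. Genes without a matched length, Hsf1 among them, have no interval.

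Transcripts are from GENCODE M21 and promoters from RefSeq (GRCm38.p6). Coding sequences were aligned with Biopython 1.88. The members and lists were chosen with earlier results of these data known. Named genes are the members, Hspa8, Hsf1, Trem2, listed genes within 100 kb, all listed genes of the HSP70 family, heat-shock factor and AKT lists, up to 4 per other list and 6 with a 3-unit element by absolute fold change, and the 5 most like the members. Cell type lists are mostly given as counts and sums, and some genes the rule names are not reported here. The steps were tested on simulated fragments. Versions were matplotlib 3.10.9, scipy 1.17.1, pandas 2.3.3, numpy 2.4.6 and Python 3.11.15.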

Additional observations from a re-analysis of the deposited data

How the results depend on the processing

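The log2 fold changes of the inducible genes kept their sign and stayed past 2-fold under both other pseudocounts and all 3 other scalings. With a pseudocount of 0.1 FPKM they were 7.59 for Hspa1a, 7.66 for Hspa1b, 3.73 for Hspa1l and 7.65 for the sum of Hspa1a and Hspa1b, and with 5 FPKM 6.05, 6.06, 1.60 and 6.65. After scaling by the median of ratios they were 7.48 for Hspa1a, 7.52 for Hspa1b and 7.73 for the sum, and after scaling by a trimmed mean of M-values 7.48, 7.52 and 7.73. Hspa8 was at 0.60 with equal summed FPKM, 1.08 with the median of ratios and 1.09 with the trimmed mean, so it passed 2-fold under the last pair. Hsf1 was at -0.15 and -0.051 with pseudocounts of 0.1 and 5 FPKM, -0.22 with equal sums, and 0.12 under each of the other scalings.

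Counts over all genes depended on the settings, against 347 higher and 1364 lower as deposited. They were 2075 lower with a pseudocount of 0.1 FPKM, 174 higher and 394 lower with 5 FPKM, 746 lower at a mean of 5 FPKM or more, 758 higher and 816 lower with the median of ratios, and 766 and 816 with the trimmed mean. Genes called higher were 20.3% of all called as deposited, 48.2% and 48.4% under the last pair, and 12.5% with equal sums. On the length of the Hspa8 coding transcript the inducible share was 52.9% in the knockout and 0.922% in WT. Of 266 counts of list members under the alternatives, 224 were within 1.5 times the main count and 42 were not. Many main counts were 0, and each 0 that stayed 0 is among the 224, so this share says little about stability. No paired analysis was possible because neither group has a second library. Depth limits the WT values of Hspa1a, Hspa1b and Hspa1l, which rest on under 100 estimated fragments each, and no setting replaces a second library.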

Other observations

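Of 7 receptors that bind extracellular HSP70 on macrophages, 0 were at least 2-fold higher or lower in the knockout as deposited, where 3.48% of all genes were higher and 13.7% lower. Relative to the all-gene median 1, Cd40, was higher and 0 were lower, where 7.66% of all genes were higher and 6.57% lower. These counts are close to the all-gene shares, and they were 1 higher and 1 lower with a pseudocount of 0.1 FPKM and 0 higher and 1 lower with equal summed FPKM. Olr1, a scavenger receptor for oxidised lipoprotein, was at 0.663 FPKM in the knockout and 2.31 FPKM in WT, a plain ratio of WT over knockout of 3.48 (interval 2.32 to 5.50), and the microbe sensor Tlr2 at 4.68 FPKM in the knockout and 9.34 FPKM in WT. Its coreceptor Cd14 was at 50.1 FPKM in the knockout and 77.8 FPKM in WT, and the costimulatory receptor Cd40 at 3.28 FPKM in the knockout and 1.58 FPKM in WT.

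Oxidative and metal stress genes, which are often induced together with HSP70 by toxic stress, had 0 of 10 members past 2-fold in either direction, with a median of -0.14, and 0 relative to the all-gene median. That is close to the same all-gene shares, and with equal summed FPKM 1 member was lower. Sqstm1, an autophagy receptor, was at 106 FPKM in the knockout and 207 FPKM in WT, and Hmox1, haem oxygenase, at 131 FPKM in the knockout and 215 FPKM in WT. The metallothionein gene Mt2 was at 66.2 FPKM in the knockout and 91.4 FPKM in WT, and Nqo1, a quinone reductase, at 2.17 FPKM in the knockout and 1.24 FPKM in WT.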
